A study of Mus musculus with 2 samples.

Results

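The genes described here encode the proteins of the cytosolic ribosome, read on microarrays of the hippocampus of ICR mice. They were chosen by name alone, as the scanner files spell it: names that begin with Rpl or Rps and a number, the stalk genes Rplp0, Rplp1 and Rplp2, and Rpsa, without the kinases whose names begin with Rps6k. The rule found 92 names among 34797, with 197 probes of 55681, and 90 of the 92 had a probe well above background on both arrays. Of the 92 names, 77 are genes of the ribosome itself (46 of the large and 31 of the small subunit), called core genes here. A further 8 are duplicated or tissue-restricted paralogues and 6 are named as pseudogenes. The remaining name, Rps19bp1, encodes a protein that binds Rps19 and is no part of the ribosome.

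The sample of the 5/6Nx group came from mice after 5/6 nephrectomy, an operation that removes most kidney tissue as a model of chronic kidney disease, and the other sample came from sham-operated mice of the same outbred strain. Both were taken 8 weeks after the operation, and each group holds 1 array. The source is given as hippocampus, although the extraction protocol speaks of cells. How many animals gave the RNA of an array is not given in the sources used here. Every difference below therefore describes these 2 arrays, has no replicate check and carries no test.

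A ribosome is built from a small subunit, which reads the mRNA, and a large subunit, which joins the amino acids and passes the new chain through an exit tunnel. Its proteins are made in near equal amounts, and their mRNAs begin with a run of pyrimidines, the 5′ TOP tract, through which the kinase mTORC1 and the protein LARP1 control their translation together. In neurons these mRNAs are also found in dendrites and axons, away from the cell body.

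The signal of a probe is given as a multiple of its array's 75th percentile, which was 1263 in 5/6Nx and 1452 in sham before scaling. A difference is the log2 value in 5/6Nx minus that in sham, read from the brightest measured probe of a gene. Signals of different probes are not compared with each other as levels. Of the spots, 72.5% in 5/6Nx and 72.7% in sham were well above background, and none was saturated. Probes of 1 gene differed from each other by an SD of 0.20 log2 (median over 7985 genes), and replicate spots of 1 probe by an SD of 0.05 log2 on each array, which is the only error these data offer. All 4 neuronal markers were well above background on both arrays, with a summed signal of 317 in 5/6Nx and 270 in sham, and so were the 3 dentate granule markers (2.84 in 5/6Nx and 2.01 in sham). The 2 CA1 markers summed to 14.8 in 5/6Nx and 30.4 in sham, with Wfs1 at -1.12, the 4 oligodendrocyte markers to 91.1 in 5/6Nx and 115 in sham, and the 4 microglia markers to 35.3 in 5/6Nx and 42.1 in sham, and each of these 10 markers was lower in 5/6Nx. Of 4 astrocyte markers 2 were lower and 2 higher, from Aqp4 at -0.83 to Gfap at 1.12. Of 2 CA3 markers, Bok lay at 0.16, and Iyd was well above background in 5/6Nx only, at least 2.25-fold higher there. The 3 endothelial markers were all higher in 5/6Nx, with a summed signal of 13.7 in 5/6Nx and 12.2 in sham. Markers of 3 other tissues differed far more in sum. The summed signal of 8 choroid plexus genes was 164 in 5/6Nx and 2.66 in sham, that of 8 blood genes 18.2 in 5/6Nx and 223 in sham, and that of 7 leptomeningeal genes 10.5 in 5/6Nx and 43.4 in sham. All of these markers except Iyd were well above background on both arrays, and the part of the markers in the values below was not tested. In bulk tissue, fewer cells of a type and less RNA per cell cannot be told apart.

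The core ribosomal protein genes formed a narrow block close to 0. Their 77 differences had a median of -0.06 and an SD over genes of 0.11, with Rps2 lowest at -0.59 and Rps27 highest at 0.15. None of the 90 measured members was at least 2-fold higher in 5/6Nx, where 4.91% of the 25944 genes measured were, and none was at least 2-fold lower, where 3.28% were (8.19% in either direction). Within 0.2 log2 of 0, about the spread between probes of 1 gene, lay 70 of the 77 core genes (90.9%), against 36.5% of all genes. Bright genes varied less in general. The 1795 other genes at least as bright as the dimmest core gene had a median of -0.01 and an SD of 0.35, and 52.8% of them lay within 0.2 log2. They are called as bright as the core genes below, but share only this lower limit with them. The 2 sets were not matched in brightness, so its part in the difference of the SDs was not tested. The median of all genes measured was 0.05 and their SD 0.60.

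Most members lay slightly below 0. Over the 90 measured names the median was -0.07, and 68 were below 0, where 44.6% of all genes were. Of the 1795 other genes as bright as the core genes, 51.9% were below 0. Their median of -0.01 lay between that of all genes and that of the members. Where 0 lies depends on the scaling, so the direction of genes near it has to be read against the other genes: the members' median lay 0.12 log2 below that of all genes, and between 0.04 and 0.18 log2 below it under 15 alternative settings. Scaled to the spike-in probes, 26 of the 27 named genes lay below 0, all but Rpl3l, so the sign of the genes given below as slightly above 0 depends on the scaling.

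**Figure D1:**
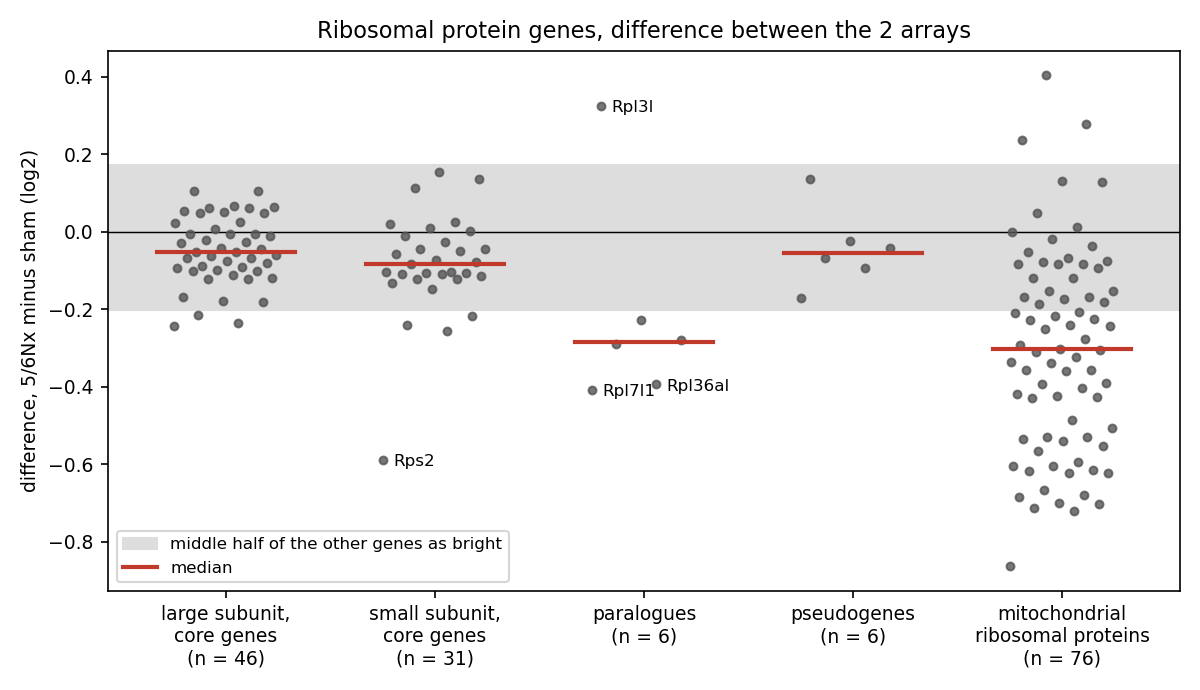
Difference in log2, 5/6Nx minus sham, of each measured gene (points) by class, with the median of each class (red bar), and the middle 50% of the 1795 other genes at least as bright as the dimmest core gene (grey band). Core genes of both subunits lie around 0 with Rps2 alone below them at -0.59, 5 of 6 paralogues lie below -0.2, and the mitochondrial ribosomal proteins spread further down around a median of -0.30.

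**Figure D2:**
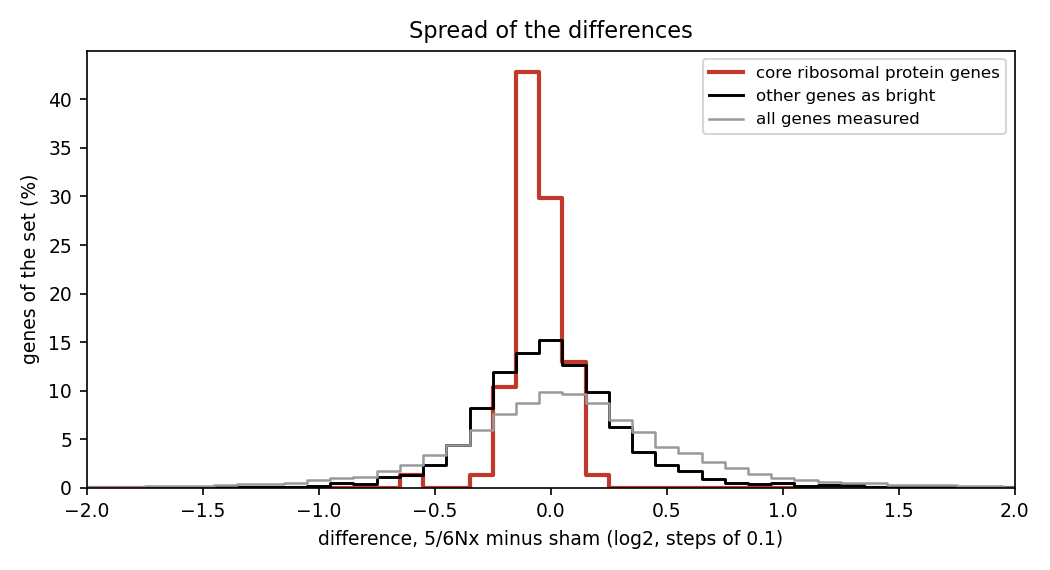
Share of genes in steps of 0.1 log2 of the difference, 5/6Nx minus sham, for core ribosomal protein genes (red), other genes at least as bright as the dimmest core gene (black) and all genes measured (grey). Genes beyond 2 log2 are outside the axis. The core genes stand in a peak with an SD of 0.11, against 0.35 for the other bright genes and 0.60 for all genes.

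In the small subunit 24 of 31 core genes were below 0, with a median of -0.08 and an SD over genes of 0.13. Rps2, a protein at the entry of the mRNA channel, stood apart from the rest. Its brightest probe read 49.96 times the 75th percentile in 5/6Nx and 75.1 times in sham, a signal 1.503-fold lower in 5/6Nx (-0.59). The other Rps2 probe read 17.5 times in 5/6Nx and 24.2 times in sham, a difference of -0.47. That probe is placed at chr17:42864841-42864900 on mm9, 18007199 bases from the brightest one at chr17:24857583-24857642, and whether it reads another copy of the sequence was not tested. Rps2 was the only member at least 1.5-fold lower, where 8.92% of all genes were, and no member was 1.5-fold higher, where 13.7% were. Of the 1795 other genes as bright as the core genes, 62 were 1.5-fold lower and 80 higher. Over 12 alternative settings the Rps2 difference ranged from -0.80 to -0.53.

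The next genes of the small subunit lay much closer to the block. Rps18, in the head of the subunit, read 28.0 times in 5/6Nx and 33.1 times in sham (-0.24, 2 probes at -0.34 and -0.24). Rps3, a protein of the mRNA entry site, lay at -0.15. Rps6, the phosphorylation target of the S6 kinases, read 67.8 times in 5/6Nx and 73.7 times in sham (-0.12). Rpsa, also known as a laminin receptor, read 146 times in 5/6Nx and 155 times in sham (-0.08). Rps15, near the decoding centre, lay at 0.01, Rps16 at 0.02 and Rps13 at 0.03, so these genes hardly differed between the arrays.

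At the upper end, Rps28 read 145 times in 5/6Nx and 134 times in sham (0.11). Rps14, on the platform of the subunit, read 245 times in 5/6Nx and 223 times in sham (0.14) from a single probe. That sign turned to -0.17 after quantile normalization and in the authors' normalized table, so no direction can be given for Rps14. Rps27, a zinc-finger protein, read 154 times in 5/6Nx and 139 times in sham (0.15), with its 4 probes between 0.03 and 0.15. All 4 of these probes are placed on chromosome 9 of mm9, whereas the RefSeq table has Rps27 on chromosome 3.

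In the large subunit 33 of 46 core genes were below 0, with a median of -0.05, an SD over genes of 0.09 and a range of -0.24 to 0.11. Rpl23a was the lowest, at 48.2 times in 5/6Nx and 57.1 times in sham (-0.24, with a second probe at -0.26). It sits beside the exit tunnel, where the signal recognition particle docks. Rpl26, also at the tunnel exit, read 66.3 times in 5/6Nx and 76.9 times in sham (-0.21), and its 3 probes lay between -0.36 and -0.21. Rpl36a, at the exit site for tRNA, read 29.6 times in 5/6Nx and 34.9 times in sham (-0.24), and its 3 probes lay between -0.28 and -0.22. All measured probes of these 3 genes were lower in 5/6Nx, by amounts close to the spread between probes of 1 gene.

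The acidic stalk of the large subunit, which recruits the elongation factors, is made of Rplp0 with copies of Rplp1 and Rplp2. Rplp0 read 112 times in 5/6Nx and 104 times in sham (0.10, 3 probes between -0.02 and 0.10). Rplp1 read 128 times in 5/6Nx and 136 times in sham (-0.09), and Rplp2 read 128 times in 5/6Nx and 130 times in sham (-0.03). The base and its partners thus lay on either side of 0, all within the spread between probes.

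The upper end of the large subunit was held by Rpl13a, Rpl32 and Rpl15 beside Rplp0. Rpl13a, often used as a reference gene in quantitative PCR, read 101 times in 5/6Nx and 96.5 times in sham (0.06). Its 2 other probes, whose sequences overlap, gave -0.64 and -0.66. Rpl32 read 137 times in 5/6Nx and 130 times in sham (0.07). Rpl15, deep in the core of the subunit, read 53.02 times in 5/6Nx and 49.3 times in sham (0.11), while its second probe read far lower in 5/6Nx, as described below. The subunits did not part: the median of the core large subunit minus that of the core small subunit was 0.03 log2. Over all members this difference was 0.02, and it turned to -0.02 when a gene was read from the mean or the median of its probes.

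**Figure D3:**
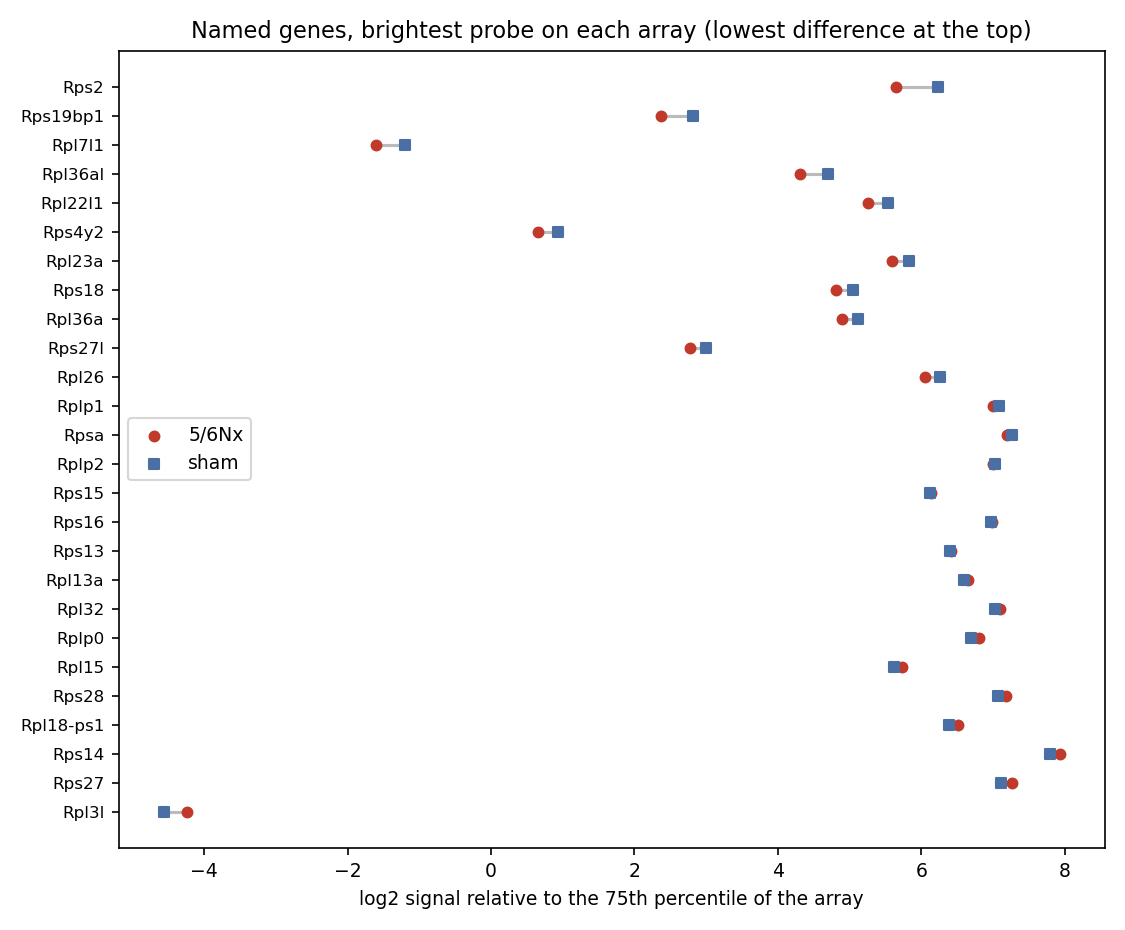
Log2 signal relative to the array's 75th percentile of the brightest probe of 26 named genes in 5/6Nx (red circles) and sham (blue squares), ordered from the lowest difference at the top to the highest at the bottom. Only the horizontal gap within a row can be read, since signals of different probes are not comparable; the gap is widest for Rps2, at -0.59.

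The paralogues, copies of core genes that can replace them or that serve other roles, lay lower as a class. Of the 8, 6 were measured, with a median of -0.28, and 5 of these were below 0, where 44.6% of all genes were. Rpl7l1, known for its part in assembling the large subunit, read 0.33 times the 75th percentile in 5/6Nx and 0.44 times in sham (-0.41), against 0.03 for Rpl7. Rpl36al read 19.8 times in 5/6Nx and 26.1 times in sham (-0.39), against -0.24 for Rpl36a. Rpl22l1, a paralogue of the RNA-binding protein Rpl22, read 38.1 times in 5/6Nx and 46.6 times in sham (-0.29), against 0.01 for Rpl22. Each copy was thus further below 0 than the gene it derives from.

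The same held for the copies of small-subunit genes. The probe named Rps4y2, which RefSeq now lists as Rps4l, read 1.57 times in 5/6Nx and 1.90 times in sham (-0.28), against -0.05 for Rps4x. Rps27l, a target of p53, read 6.82 times in 5/6Nx and 7.98 times in sham (-0.23), against 0.15 for Rps27. All 5 of these copies were lower in 5/6Nx under each of the 11 or 12 alternatives run on them. The 1 measured paralogue above 0 was Rpl3l, known from heart and skeletal muscle, at 0.05 times in 5/6Nx and 0.04 times in sham. Its difference of 0.32 shrank to 0.11 when the trend with signal was removed. Each of the 6 rests on 1 probe, and the longest run of bases that such a probe shares with a probe of its parent was 7. This count leaves out the rest of the parent's mRNA, so whether a probe also reads the parent was not tested.

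The copies known from the testis were at the limit of detection. Rpl39l was well above background in 5/6Nx, at 0.028 times the 75th percentile, and not in sham, at 0.016 times. The ratio of these 2 readings of a single probe was 1.79-fold, higher in 5/6Nx. It is no lower limit, since the sham reading was not well above background. Neither of the 2 probes of Rpl10l was well above background on either array. Beside them, 3 of 7 germ cell markers were well above background on both arrays, with a summed signal of 0.288 in 5/6Nx and 0.239 in sham. The germ cell marker Prm1, a protamine, was well above background in 5/6Nx at 0.49 times and not in sham at 0.010 times, at least 41.4-fold higher in 5/6Nx, and its part in the Rpl39l value was not tested. Of 6 markers of skeletal muscle and heart, 4 were well above background on both arrays, with a summed signal of 1.14 in 5/6Nx and 1.396 in sham.

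The 6 names of pseudogenes were all measured, with a median of -0.06, and ran from Rpl34-ps1 at -0.17 to Rpl18-ps1 at 0.13. Whether such a probe reads the pseudogene or its parent is uncertain, since ribosomal protein genes have many processed copies. The probe of Rpl34-ps1 is placed at chr3:130429798-130429857 on mm9, overlapping the span of an Rpl34 probe at chr3:130429830-130431677, whereas RefSeq has the pseudogene on chromosome 6. That of Rps19-ps6 is placed at chr7:25673948-25674786, near the Rps19 probe at chr7:25670166-25670225, whereas RefSeq has it on chromosome 12. The probe of Rpl17-ps1 shares a run of 30 bases with a probe of Rpl17, and that of Rpl34-ps1 a run of 17 with a probe of Rpl34. Rps19bp1 read 5.20 times in 5/6Nx and 7.03 times in sham, a difference of -0.44. It was the second lowest of the 90 names.

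Placement of the probes set a limit on identity. Of 195 member probes with a position on mm9 and a chromosome in the RefSeq table, 14 lay on another chromosome than the gene, 11 of them probes of 5 core genes (Rpl13, Rpl36, Rps27, Rps29 and Rps4x). Without these 14 probes 85 members were left, with a median of -0.07.

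The 5′ ends of the genes were searched for the tract that this class is known for, and most annotated starts did not begin with it. Sequence from 250 bases before to 50 after the start was found in RefSeq (GRCm38.p6) for 57 of the 77 core genes. A C at the first transcribed base followed by 4 bases that are each C or T, read on the strand of the gene, was found in 13 of them (22.8%), against 3.01% of 27025 genes in that table. The 30 bases around the start, 15 before it and 15 from it, are shown for 5 genes that carry the tract and span the range of differences. They are also shown for Rps2, which has no tract at the annotated first base. The Rps2 window does hold cttct a few bases further on, within the 10 bases of the wider count below. Capitals mark a tract at the first base.
Rps18: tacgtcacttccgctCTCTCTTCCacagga
Rpl35: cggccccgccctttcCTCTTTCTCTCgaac
Rps6: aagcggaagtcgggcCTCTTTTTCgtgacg
Rpl15: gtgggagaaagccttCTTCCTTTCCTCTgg
Rps27: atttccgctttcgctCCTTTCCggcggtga
Rps2: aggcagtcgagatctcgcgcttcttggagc
These windows lie at chr17:33955651-33955680 on the minus strand for Rps18, chr2:39005117-39005146 on the minus strand for Rpl35, chr4:86857353-86857382 on the minus strand for Rps6 and chr14:18270972-18271001 on the minus strand for Rpl15. Those of Rps27 and Rps2 lie at chr3:90213634-90213663 on the minus strand and chr17:24720048-24720077 on the plus strand. The tract was 9 bases long in Rps18, where the difference was -0.24, and 13 bases long in Rpl15, where it was 0.11. Over the 13 genes with the tract at the first base the median difference was -0.06 (range -0.24 to 0.15), against -0.07 over the other 44 (range -0.59 to 0.11). The genes with the tract at the first base therefore covered nearly the same range as the others, apart from Rps2. Since annotated starts can miss the true start by a few bases, a tract beginning within 10 bases of it was also counted. It was present in 34 of the 57 genes (59.6%), against 33.3% of all genes in the table.

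More than 1 probe was measured for 57 members, up to 7 for Rpl17, which gives a second reading of the same mRNA on the same arrays. Among probes less than 8-fold (3 log2) below the brightest probe of their gene, the readings lay close together. The SD between them had a median of 0.04 log2 over 53 members, and in 48 of the 53 the range between them was under 0.2 log2. Of the measured member probes, 29 share a run of at least 30 bases with another probe of their gene. Such overlapping probes are not independent readings, and how much of this closeness comes from shared sequence was not tested. The widest was Rpl27a, a large-subunit gene, with 2 probes at -0.10 and -0.11. Its other probe, 1600 bases downstream of the brightest, was 2-fold lower, at 12.4 times in 5/6Nx and 24.8 times in sham.

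The dim probes of the same genes differed from the bright ones. A probe is called dim here when it was measured on both arrays and lay at least 3 log2, or 8-fold, below the brightest probe of its gene. This rule was chosen after the values were seen and uses the mean of both arrays, not the difference. It held for 20 probes of 17 members, 12 probes of 10 large-subunit genes and 8 probes of 7 small-subunit genes. Their median difference was -0.67, and 19 of the 20 were below 0, where 36.1% of the 3989 such probes of all genes were. At least 2-fold lower in 5/6Nx were 5 of the 20, where 3.03% were. With only the dimmest such probe of each gene, 16 of 17 were below 0, with a median of -0.68. Of 2897 such probes of other genes, 36.9% were below 0. Over all 193 measured member probes 6 were at least 2-fold lower, where 3.24% of all probes were, and none was at least 2-fold higher, where 5.17% were. The 6 are these 5 and the Rpl27a probe above.

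The lowest dim probes belonged to Rpsa, Rpl15, Rps25, Rps6 and Rpl21, whose brightest probes differed little between the arrays. The Rpsa probe read 0.098 times the 75th percentile in 5/6Nx and 0.35 times in sham, 3.60-fold lower in 5/6Nx (-1.85), where the brightest Rpsa probe gave -0.08. The Rpl15 probe read 3.70 times in 5/6Nx and 10.4 times in sham (-1.50), where the brightest gave 0.11. Rpl15 is the one member whose probes both differed in sign and lay more than 1 log2 apart.

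Rps25, a protein of the small subunit's head that viral internal ribosome entry sites use, had a dim probe at 0.11 times in 5/6Nx and 0.29 times in sham (-1.46), against -0.12 for its brightest. The dim probe of Rps6 read 1.37 times in 5/6Nx and 3.54 times in sham (-1.37), also against -0.12. The first dim probe of Rpl21 read 0.45 times in 5/6Nx and 0.93 times in sham (-1.05), and its other dim probe gave -0.68, against -0.07 for the brightest. In each of these 5 genes the lower reading came from a probe downstream of the brightest probe. To show where the paired readings come from, the first 30 bases of each of these probes are given, or, where the probe holds the polyadenylation signal AATAAA, 30 bases that include it. Capitals mark that signal, which was searched on the probe's own strand.
Rpsa dim: acctggccagattgggattttgtgtcccag
Rpsa brightest: agatggaaggaaAATAAAgttgctaaaagc
Rpl15 dim: gacatttcacaaaggccatacttaaccaca
Rpl15 brightest: atcagaagaaatcctgacacccagtggatc
Rps25 dim: ttggaaaAATAAAactttattgaatcaaat
Rps25 brightest: aggacttatcaagctggtctcaaagcacag
Rps6 dim: tggtgtgtatcacaagttagcctgtgtagc
Rps6 brightest: tgtcctgcaacacaaatgccgacgtattgc
Rpl21 dim: ccttagactgtagtgtggggtttgctcatt
Rpl21 brightest: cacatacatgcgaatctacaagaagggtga
The probes are 60 bases long, and their positions come from the scanner files, which use mm9. The dim probe of Rpsa lies at chr9:120040967-120041026 on the plus strand, 291 bases downstream of the brightest at chr9:120040617-120040676, whose own bases hold AATAAA. The dim probe of Rpl15 lies at chr14:19100588-19100647 on the minus strand, 1010 bases downstream of the brightest. Those of Rps25 and Rps6 lie at chr9:44218247-44218306 on the plus strand and chr4:86500063-86500122 on the minus strand, 153 and 626 bases downstream. The dim probe of Rpl21 lies at chr5:147647577-147647636 on the plus strand, 996 bases downstream. The brightest probes of Rps25 and Rpl21 span chr9:44216951-44218094 and chr5:147646040-147646581, which is more than the length of a probe. No annotation of mm9 was used here, so whether a dim probe lies in an exon, an intron, a UTR or beyond the gene was not determined.

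Among the remaining dim probes, those of Rpl39 (-0.87, 122 bases downstream), Rpl17 (-0.89, 648 bases downstream) and both of Rpl13a (-0.66 and -0.64) were also well below their brightest probes. The dim probe of Rpl23 is the best measured, with 10 spots on each array. It read 3.10 times in 5/6Nx with an SD between spots of 0.02 log2 and 4.56 times in sham with an SD of 0.05 log2. Its difference was -0.56, and the brightest Rpl23 probe gave -0.09. The SD between spots covers the reading of 1 array and says nothing of the spread between animals.

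Of the 20 dim probes, 16 lie downstream of the brightest probe, with a median of -0.67, and 4 lie upstream, with a median of -0.60. Among the upstream ones were those of Rpl30 (-0.79), Rpsa (-0.41) and Rps27a (-0.21). Against the brightest probe of the same gene 18 of the 20 were lower, with a median gap of -0.68. Over 3969 dim probes of all other genes the median gap was 0.09. Over the 497 dim probes of other genes as bright as the core genes it was 0.03. How many of those probes were lower than their brightest was not counted. The exceptions among the 20 were Rps15a, whose dim probe gave -0.05 against -0.11, and Rps3, whose dim probe read 2.20 times in 5/6Nx and 1.81 times in sham (0.28) against -0.15. AATAAA was found in 4 of the 20 dim probes, in 57 of all 197 member probes (28.9%) and in 10.1% of the 55674 probes with a sequence.

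**Figure D4:**
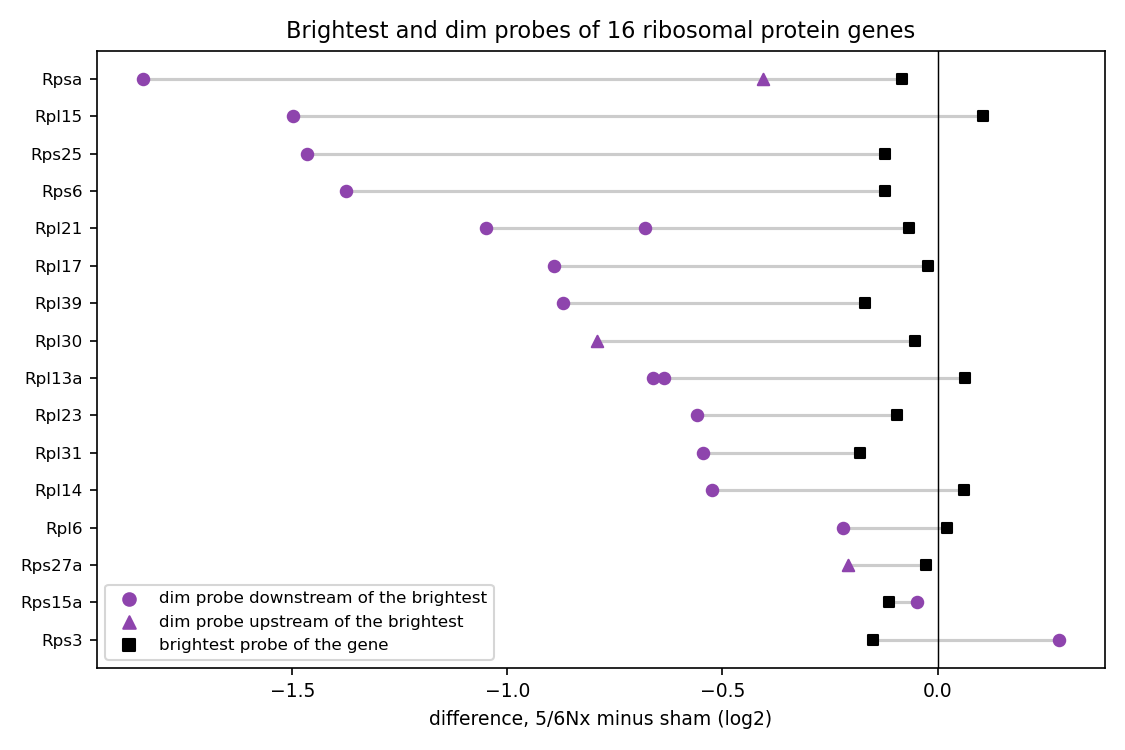
Difference in log2, 5/6Nx minus sham, of the brightest probe (black squares) and the dim probes (purple, circles downstream and triangles upstream of the brightest) of 16 ribosomal protein genes, 1 row a gene. The black squares stay between -0.18 and 0.11, while 18 of 19 purple points lie below 0, down to -1.85 for Rpsa.

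The low readings stood at the far end of the distance below the brightest probe. In members with more than 1 measured probe, the median difference was -0.08 over 57 brightest probes, -0.09 over 54 probes under 1 log2 below them, -0.13 over 29 probes 1 to 3 log2 below, and -0.67 over the 20 dim ones. Over all other genes the dim probes did not lie low. Their median was 0.17 over 3969 probes, and 0.11 over the 497 probes of 340 other genes as bright as the core genes, of which 40.4% were below 0. The 12 dim probes of genes in the translation, ribosome assembly, mTORC1 and p53 lists had a median of 0.16. The 13 of mitochondrial ribosomal protein genes had a median of -0.30, with 11 below 0 and 3 (23.1%) at least 2-fold lower, close to the share among members (25%). Among members, 13 dim probes had a signal above the median of all probes measured, and their median was -0.66. Dim probes of 1 gene share its RNA, and all of them share the 2 arrays, so they are no replicates of the groups.

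**Figure D5:**
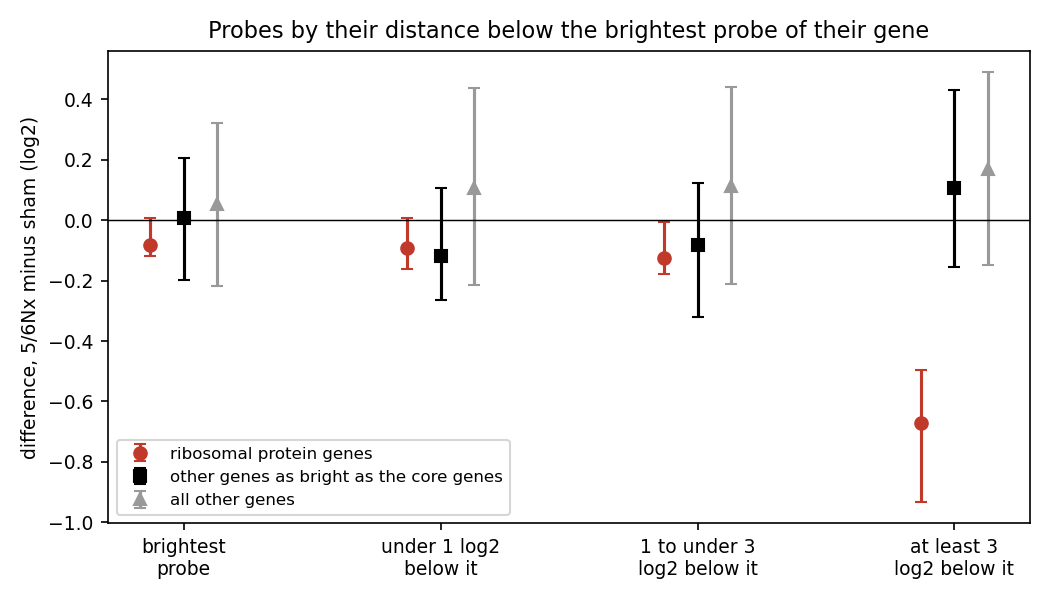
Median difference in log2, 5/6Nx minus sham, of probes by their distance below the brightest probe of their gene, with bars over the middle 50% of probes, for ribosomal protein genes (red), other genes at least as bright as the dimmest core gene (black) and all other genes (grey), each with more than 1 measured probe. The sets lie near 0 in the first 3 classes, and in the last the ribosomal protein genes stand at -0.67, against 0.11 and 0.17.

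Genes around the ribosome were set beside it by list. Ribosomal proteins that the name rule cannot find lay where the core block lay. Fau read 200 times in 5/6Nx and 198 times in sham (0.02), and Rack1, under its array name Gnb2l1, 97.9 times in 5/6Nx and 111 times in sham (-0.19). Of 28 translation initiation factors, 14 were below 0, where 44.6% of all genes were, and the median was -0.03. None was 2-fold higher, where 4.91% of all genes were, and 1 was 2-fold lower, where 3.28% were. That gene was Eif2s1, the alpha subunit of eIF2 and the target of the stress kinases, at 2.41 times in 5/6Nx and 4.91 times in sham (-1.03). Eif5b followed at -0.84, and at the upper end stood Eif1 at 0.24 and Eif3k at 0.25.

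Of 13 elongation and termination factors, 11 were below 0, where 44.6% of all genes were, with a median of -0.18. The lowest was Eef1e1, a part of the aminoacyl-tRNA synthetase complex, at 0.96 times in 5/6Nx and 1.94 times in sham (-1.02), followed by Eef1g, a subunit of the eEF1 complex, at 50.9 times in 5/6Nx and 81.4 times in sham (-0.68). The highest were Pabpc1, the poly(A)-binding protein, at 0.37 and Eef2k, the kinase that slows elongation, at 0.94. Among 21 other mRNAs known for a 5′ TOP tract none was 2-fold apart, where 8.19% of all genes were. Their median was -0.09, from Hnrnpa1 (-0.99) and Cct4 (-0.75) to Pabpc1 and Vim (0.72). The SD over these carriers of the tract was 0.38, against 0.11 over the core ribosomal genes.

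Of 38 ribosome assembly factors 26 were below 0, where 44.6% of all genes were, with a median of -0.19. At least 2-fold lower was 1 of them, where 3.28% of all genes were. Pes1, needed to process the RNA of the large subunit, read 0.56 times in 5/6Nx and 3.88 times in sham (-2.81). Nop10 lay at -0.71, and Fbl, the methyltransferase of the nucleolus, and Nip7 were the highest at 0.43 and 0.57. The 12 measured genes of RNA polymerase I transcription had a median of 0.06. Taf1a at -1.50 was the only one 2-fold lower, where 3.28% of all genes were. Polr1b followed at -0.47, and Polr1a at 0.61 and Taf1d at 0.83 stood at the upper end. The 20 genes around mTORC1, the S6 kinases and LARP1 had a median of -0.09, from Mycn (-0.69) and Rheb (-0.66) to Myc (0.64) and Eef2k. None of them was 2-fold apart, where 8.19% of all genes were. Of 15 measured genes tied to p53 and nucleolar stress 3 were below 0, where 44.6% of all genes were, with a median of 0.31, and 2 were 2-fold higher, where 4.91% were. Cdkn1a, the cell cycle inhibitor, read 3.19 times in 5/6Nx and 0.86 times in sham (1.90), and Pmaip1 read 1.15 times in 5/6Nx and 0.50 times in sham (1.21). Ccng1 (-0.99) and Zmat3 (-0.57) were the lowest of that list.

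Genes named for proteins of the mitochondrial ribosome, which translates the few messages of the mitochondrial genome, lay lower than those of the cytosolic one. All 76 genes with such names were measured, a list added after the data were seen. They were taken by name alone, and whether each, Mrps36 included, encodes a part of that ribosome was not checked. Their median was -0.30 and 69 of 76 were below 0, where 44.6% of all genes were. None was 2-fold apart in either direction, where 8.19% were. At least 1.5-fold lower were 15 (19.7%), where 8.92% were, and none was 1.5-fold higher, where 13.7% were. Mrps36 read 5.02 times in 5/6Nx and 9.13 times in sham (-0.86), and Mrps25 read 7.96 times in 5/6Nx and 13.1 times in sham (-0.72). At the other end, Mrps26 lay at 0.28 and Mrpl41 read 39.7 times in 5/6Nx and 29.99 times in sham (0.40). The median lay 0.36 log2 below that of all genes, and between 0.25 and 0.42 log2 below it under 12 alternative settings.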

How the data were processed

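Total RNA of 2 samples was read on Agilent arrays with 1 dye, Cy3, as the labels' protocols say. The deposited scanner files hold the linear intensity of every spot. They were extracted, per the file headers, with Feature Extraction 10.7.1.1, whereas the submitters' processing notes name 9.5.1.1. The processed intensity is background-subtracted, and nothing was scaled between arrays. The deposited table of normalized intensity was used as an alternative.

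Control spots and outlier spots (97 in 5/6Nx and 105 in sham) were left out. The log2 of each deposited intensity had the log2 of its array's 75th percentile subtracted, and spots of a probe were averaged. A probe was measured when well above background on both arrays, and a gene was read from its brightest such probe. For a probe above background on 1 array, the bound is set against the lowest signal well above background on the other array. Where the probe's own signal there is higher, as for Rpl39l, the measured ratio is given, which is no lower limit. A 2-fold or 1.5-fold difference is a size and no test. The number of arrays limits the precision. Of the member probes, 174 led by accession to the same RefSeq symbol, 3 to another, and 20 accessions were not matched. Promoters and names came from RefSeq (GRCm38.p6), probe positions from the scanner files (mm9).

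The members, lists and rules were chosen with earlier results of these data known. Named were the 6 highest and 6 lowest genes of each subunit, members at least 1.5-fold apart, detected paralogues, stalk genes, Rpsa, genes whose probes differ in sign by 1 log2 or more, and the 2 highest and 2 lowest of each list. Some genes that this rule takes are not reported here. Other genes named, and all dim probes, were chosen after their values were seen. The alternatives tried were 2 other scalings (array median, median of the spike-in probes), quantile normalization, subtraction of a lowess trend (span 0.3), normexp (offset 50, limma 3.58.1), no background subtraction, the authors' table, outlier spots kept, other filters, means or medians of probes, and narrower member lists. The scripts ran in Python 3.11.15 and R 4.3.3 and were tested on simulated data.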

Additional observations from a re-analysis of the deposited data

How the results depend on the processing

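Scaling to the spike-in probes moved the median of all genes, 0.05 as reported, to -0.16, and scaling to the array median moved it to -0.11. With the spike-in probes the medians were -0.28 over all ribosomal protein genes, -0.28 over the large and -0.30 over the small subunit, -0.89 over the dim probes and -0.52 over the mitochondrial ribosomal protein genes, and 9 dim probes were at least 2-fold lower. With the array median 8 dim probes were. Both shift every gene by 1 constant. With only dim probes above the median signal, where fewer probes were counted, 3 were at least 2-fold lower. At 1.5-fold 1 ribosomal protein gene was lower. The remaining alternatives left these results within the spread between probes. The median over ribosomal protein genes ran from -0.28 to -0.06 over 15 alternatives, that of the dim probes from -0.89 to -0.60 over 12. Of 322 values of 27 named genes under alternatives, 38 had the other sign, and 36 moved by more than the spread between probes. Rpl15 at -0.70, Rpl13a at -0.64 and Rpsa at -0.66 were lowest when a gene was read from the mean or the median of its probes, which takes in their dim probes. Rps14 was lowest at -0.17, and the cause was not tested. Among all genes, 1274 were 2-fold higher and 852 lower, against 687 and 497 with normexp, 638 and 468 without background subtraction, 2604 and 1670 without a filter, 322 and 306 above the median signal, 904 and 1229 scaled to the median, 802 and 1411 scaled to the spike-in probes, 1008 and 1036 after quantile normalization, 1013 and 1034 in the authors' table, and 983 and 1065 with lowess.

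No paired analysis was possible because a group holds 1 array, and no array was left out in turn for the same reason. Alternatives on dim probes, mitochondrial genes and probe placement were chosen after seeing the data. Probes near background, such as those of Rpl3l, Rpl39l and several dim probes, are the least certain.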
